A study of Mus musculus with 12 samples.

Results

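The ratio of ribosome footprints to RNA was measured gene by gene in mammary cells of mice whose FGF receptor 1 had been activated with AP20187. The series held 12 libraries, of which the 6 AP20187 libraries were used here: 3 RNA libraries and 3 ribosome footprint libraries, paired by the number in their labels. The vehicle libraries were not used. Of 7318 listed genes, 7301 had enough counts to be tested. The mice were FVB/N females aged 4 weeks that carried MMTV-Wnt1 and MMTV-iFgfr1, and they were taken 6 h after intraperitoneal AP20187. MMTV is a viral promoter active in mammary epithelium, and iFgfr1 is a receptor that AP20187 activates by bringing its copies together. All 6 libraries therefore carried an active Wnt1 transgene as well as activated FGFR1, and no group had AP20187 without the inducible receptor. The labels give no cell sort, and they leave out how many mice went into a library. The p-values therefore cover the variation among these 3 pairs, part of which may be technical.

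Ribosome profiling sequences the short stretches of mRNA that ribosomes shield from nuclease. Divided by the RNA of the same gene, the footprints give its ribosome occupancy, often called translational efficiency, which depends on how often ribosomes start and how long they stay. Cycloheximide, an inhibitor of elongation, was present from dissection to harvest, and the RNA libraries were made with a kit that selects polyadenylated RNA. In growing tissue, growth factor signalling through PI3K and mTOR is known to act on transcripts of the translation machinery, whereas replication-dependent histone mRNAs end in a stem-loop in place of a poly(A) tail.

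Values are CPM, that is, counts scaled to a common library size over the listed genes. The log2 ratio is that of footprint CPM over RNA CPM, so 0 means equal CPM and 1 means 2-fold more footprints than RNA, relative to the other genes. A gene was called higher or lower when its adjusted p from the paired quasi-likelihood test of edgeR was under 0.05. RNA libraries 1, 2 and 3 held 237015762, 113384539 and 94513818 counts, and footprint libraries 1, 2 and 3 held 11018709, 3042199 and 3769368. A count of 3 corresponds to 0.0125 to 0.0319 CPM in RNA and to 0.29 to 0.936 CPM in footprints. Footprint library 3 listed 87 genes at 0, against 8 and 19 in footprint libraries 1 and 2. Summed RNA of 9 luminal epithelial markers was 7302 to 9949 CPM and that of 10 basal markers 2846 to 4485 CPM. The 7 fibroblast markers summed to 1244 to 1661 CPM and the 4 endothelial ones to 283.0 to 317.9 CPM. The 4 leukocyte markers summed to 196.9 to 297.1 CPM and the 4 adipocyte ones to 46.48 to 98.35 CPM. Epithelial marker RNA thus exceeded that of the other types named, but the lists differ in length and such sums do not measure cell shares. In such bulk samples, fewer cells of a type and less RNA per cell cannot be told apart.

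Footprints followed RNA over most genes and departed from it in both directions. The test called 1685 genes higher, 23.1% of those tested, and 1956 lower, or 26.8%. Without pair 1, which holds the deepest libraries, 777 were higher and 1066 lower, and without pair 3 the counts were 2188 and 2431. In all, 3641 genes or 49.9% were called, of which 3631 had the same sign in all 3 pairs, and 2063 had a ratio past 2-fold in either direction. The middle of the distribution was narrow, with quartiles of -0.68 and 0.56, while the range ran from -10.32 for Rpl19 to 12.02 for Hist4h4. Pearson's r over the 7301 genes between mean log2 RNA CPM and mean log2 footprint CPM was 0.766, as a description across genes that share libraries. The log2 ratios of pairs 1 and 2 had r = 0.934, those of pairs 1 and 3 had 0.832 and those of pairs 2 and 3 had 0.784.

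**Figure D1:**
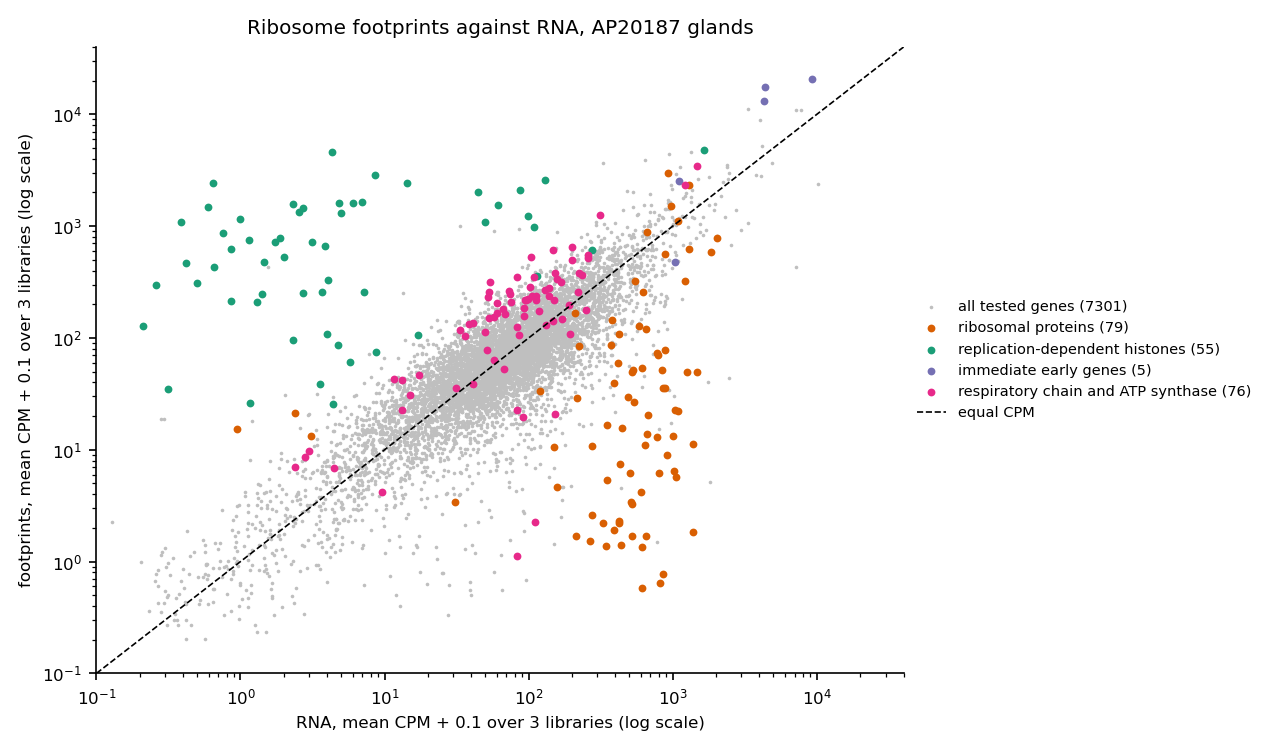
Mean footprint CPM (y axis, log scale) against mean RNA CPM (x axis, log scale) over 3 AP20187 libraries each, with 0.1 added to both; each point is 1 gene and the dashed line marks equal CPM. Most of the 79 ribosomal protein genes lie below the line and the 55 replication-dependent histone genes lie above it.

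Members of a pair of gene families made up much of both extremes. Among the 100 genes with the lowest ratio, 44 encode ribosomal proteins, and among the 100 with the highest, 52 encode histones. A read from a stretch that several genes share cannot be placed on 1 of them. For each gene, the share of its 28-base coding windows that recur in an annotated transcript of a gene elsewhere was therefore computed from the GENCODE M21 transcripts on GRCm38. In the lowest 100 genes, 89 shared at least 75% of their windows and 93 shared windows with an annotated pseudogene. In the highest 100, 40 shared at least 75%, 42 shared under 5% and 45 shared windows with a pseudogene, and Hist4h4 at the top shared 2.48%. The first 42 coding bases that lie within 1 exon are printed for genes at the low end and for 4 comparison genes. Capitals mark bases that lie in a window found in another gene.
Rpl19: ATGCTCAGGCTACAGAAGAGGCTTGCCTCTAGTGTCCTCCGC
Rpsa: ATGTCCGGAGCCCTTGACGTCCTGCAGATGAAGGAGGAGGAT
Ppia: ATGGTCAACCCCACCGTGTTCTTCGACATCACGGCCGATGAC
Eif4a1: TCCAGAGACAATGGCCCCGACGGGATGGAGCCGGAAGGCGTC
Rps3: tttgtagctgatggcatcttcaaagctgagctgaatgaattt
Rpl8: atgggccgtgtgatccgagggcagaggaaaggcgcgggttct
Hist4h4: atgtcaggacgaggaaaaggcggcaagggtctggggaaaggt
Cebpb: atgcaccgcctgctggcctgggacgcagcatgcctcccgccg
These lie in coding exons on GRCm38 at chr11:98027824-98027865 (plus strand, Rpl19), chr9:120128490-120128531 (plus, Rpsa), chr11:6415911-6415952 (plus, Ppia) and chr11:69670934-69670975 (minus, Eif4a1). The comparison stretches are at chr7:99482659-99482700 (minus, Rps3), chr15:76904313-76904354 (plus, Rpl8), chr6:136804338-136804379 (minus, Hist4h4) and chr2:167689022-167689063 (plus, Cebpb). Windows of the Rpl19 stretch recurred in 10 other genes, those of Ppia in 8, those of Rpsa in 4 and those of Eif4a1 in 2.

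Ribosomal proteins, the structural components of the ribosome, had far fewer footprints than RNA. Of 79 genes, 69 were lower, 5 higher and 5 not called, and their median log2 ratio was -4.62 against -0.04 over all genes tested. The median was -4.23 in pair 1, -4.62 in pair 2 and -5.19 in pair 3. Rpl19, of the large subunit, had 723.8, 753.9 and 968.2 CPM in RNA and 0.772, 0.312 and 0.563 CPM in footprints in pairs 1, 2 and 3. These footprints rest on 8, 1 and 2 counts, and its log2 ratio was -10.32 ± 0.35 (SE, n = 3 pairs; edgeR adjusted p = 5.76e-06). RNA and footprint values were separated in every pair. Rpsa, of the small subunit, had 1224, 1287 and 1628 CPM in RNA and 1.35, 1.56 and 2.25 CPM in footprints, a log2 ratio of -9.68.

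The shared sequence of these genes moved with their ratio. The median share of windows was 97.0%, no ribosomal protein gene shared under 5%, and Spearman's correlation between share and ratio over the 79 genes was -0.753. Across all tested genes with an annotated transcript, the median log2 ratio was 0.07 in the 4919 genes that share no window. It was -0.57 in the 500 genes sharing 25% to under 75%, -1.95 in the 253 genes sharing 75% to under 100% and -4.20 in the 92 genes sharing every window. Of 3 ribosomal protein genes that share under 25%, 2 were called higher and 1 was not called. Rpl8, with 11.4% shared, had 833.5, 966.0 and 1002 CPM in RNA and 2906, 2360 and 3743 CPM in footprints, a log2 ratio of 1.67 ± 0.22 (edgeR adjusted p = 0.000954). Rps3, with 22.2% shared, had a log2 ratio of 0.81 (edgeR adjusted p = 0.0129), a call lost without pair 1 (adjusted p = 0.116). The part of shared sequence in the low ratios was not tested, and no ribosomal protein gene was free of it.

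**Figure D2:**
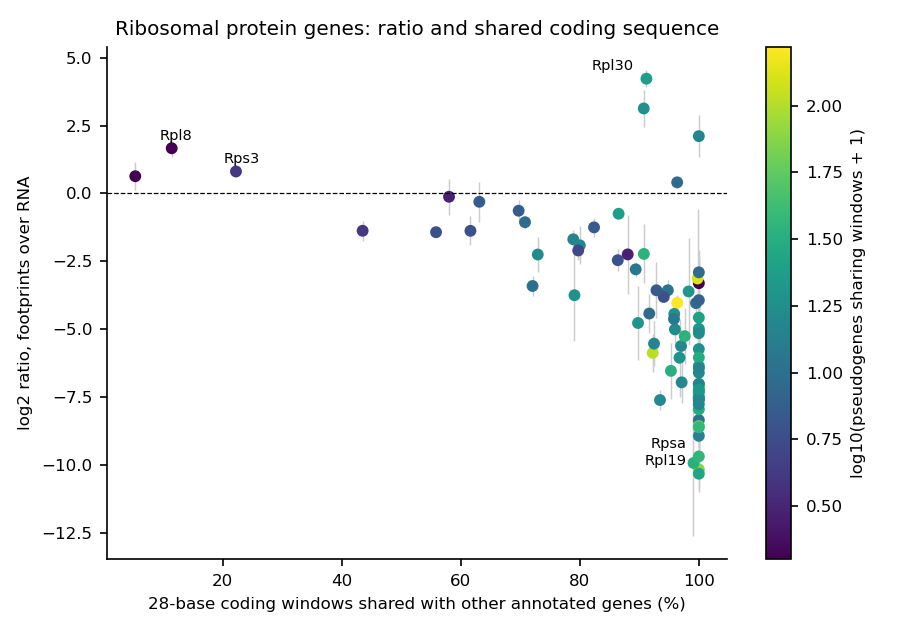
Log2 ratio of footprints to RNA (y axis; bars are the SD over 3 pairs) of 79 ribosomal protein genes against the percentage of their 28-base coding windows found in other annotated genes (x axis), coloured by the number of pseudogenes that share windows. Rpl8 and Rps3, with 11.4% and 22.2% shared, lie above 0, and most genes near 100% lie far below it.

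The remaining 3 ribosomal protein genes called higher, Rpl30, Rpl34 and Rps27, had little RNA assigned to them. Rpl30 had 0.662, 0.614 and 1.24 CPM in RNA and 13.1, 14.1 and 18.3 CPM in footprints, with 91.2% of its windows shared. Their log2 ratios were 4.23, 3.13 and 2.11, and at least 90.7% of windows were shared in each. Low ratios extended to other genes of the translation machinery that share coding sequence. Eif4a1, the RNA helicase of the cap-binding complex, had 1694, 1483 and 2267 CPM in RNA and 5.21, 4.68 and 5.35 CPM in footprints (log2 ratio -8.45, 99.4% shared). Eif4e, which binds the cap, stood at -5.68 with 80.5% shared.

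Among 43 initiation factor genes, 10 were higher and 14 lower, against 23.1% and 26.8% of all genes tested. Of the 23 that share under 5% of their windows, 6 were higher and 4 lower, with a median of 0.16. These counts lay near the shares over all 5916 genes that share under 5%, of which 24.4% were higher and 22.8% lower. Eif2b2, a subunit of the exchange factor for eIF2, was the member of these 23 with the highest ratio, 1.17. Without pair 1, 3 of the 23 were higher and 0 lower, against 10.9% and 10.4% of all genes that share under 5%. The list of other genes with a 5′ terminal oligopyrimidine tract, the motif through which mTOR acts on translation, had 27 members. Of these, 4 were higher and 13 lower, against the same 23.1% and 26.8% of all genes tested. Tpt1, a growth-related protein, stood at -5.82 with every window shared, and Eef1a1, the elongation factor that brings tRNAs to the ribosome, at -4.08 with 89.4% shared. Eif2s3x, a subunit of initiation factor eIF2, had the highest ratio of the list, 1.14 (edgeR adjusted p = 0.0048), with 95.03% shared. The 6 members of this list that share under 5% held 2 higher and 0 lower genes and had a median of 0.38. Ppia, a peptidyl-prolyl isomerase whose windows occur in 52 pseudogenes, stood at -9.11, and the glycolytic enzyme gene Gapdh, with 339, at -6.71.

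Replication-dependent histones, which package newly made DNA, were the reverse case, with far more footprints than RNA. Of 55 genes, 54 were higher and 0 lower, with a median log2 ratio of 7.78. The median was 7.75 in pair 1, 9.21 in pair 2 and 6.11 in pair 3. Together they took 3218, 1030 and 4026 CPM of RNA and 59940, 45160 and 57120 CPM of footprints in pairs 1, 2 and 3. These mRNAs lack a poly(A) tail and the RNA kit selects polyadenylated RNA, so their ratios cannot be read as ribosome occupancy alone. The part of that selection in the ratios was not tested. Hist4h4, a histone H4 gene, had 0.612, 0.324 and 0.712 CPM in RNA and 1945, 1353 and 3941 CPM in footprints. Its log2 ratio was 12.02 ± 0.35 (edgeR adjusted p = 5.76e-06), and it shares 2.48% of its windows. Footprints exceeded RNA in every pair, as they did for Hist1h4d, another H4 gene, with 4.56, 2.18 and 5.88 CPM in RNA and 4909, 3557 and 5342 CPM in footprints.

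Linker histone genes spanned a wide range of RNA. Hist1h1a, which shares 0.817% of its windows, had 109.6, 17.3 and 134.2 CPM in RNA and 2084, 1408 and 2789 CPM in footprints, a log2 ratio of 4.97. Hist1h1c had 1956, 651.1 and 2322 CPM in RNA and 3998, 2045 and 8431 CPM in footprints, a log2 ratio of 1.51 (edgeR adjusted p = 0.00187, and 0.0647 with no replicate block). Its RNA and footprint libraries overlapped between pairs but not within a pair. Hist1h2bc, an H2B gene, had the smallest called ratio of the family, 0.91, and lost its call without pair 1 (1.08, adjusted p = 0.0553) and with no replicate block (1.16, adjusted p = 0.21). Hist1h4n was the member not called, at 2.60 (adjusted p = 0.06), with footprints of 34.6, 39.0 and 3.66 CPM. It was called without pair 3 (3.72, adjusted p = 1.86e-06).

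The stem-loop that ends these mRNAs was looked for in annotated 3′ UTRs. The histone stem-loop consensus, searched on the transcript strand, was present in 36 of 54 matched histone genes (66.7%), in 1 of 11 variant histone genes and in 1 of 7218 other genes. That other gene was Syncrip, an RNA-binding protein gene that was called lower. Histone genes with and without an annotated match had medians of 7.92 and 7.90. Those without a match include Hist1h2ai, Hist1h2an and Hist1h3h, whose annotated 3′ UTR of 3 bases is too short to hold the consensus. A missing match is therefore not a missing stem-loop, and the medians do not show what the stem-loop does. The site is printed for 3 histone genes and for H2afx, a variant histone, with the stem-loop in capitals.
Hist1h4d: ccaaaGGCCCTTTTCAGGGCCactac
Hist4h4: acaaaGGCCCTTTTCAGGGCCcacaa
Hist1h1c: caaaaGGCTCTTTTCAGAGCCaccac
H2afx: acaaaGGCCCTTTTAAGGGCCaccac
The sites are in 3′ UTRs on GRCm38 at chr13:23581945-23581970 (plus strand, Hist1h4d), chr6:136803993-136804018 (minus, Hist4h4), chr13:23739507-23739532 (plus, Hist1h1c) and chr9:44335235-44335260 (plus, H2afx).

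Variant histones, made outside of DNA replication, did not share the pattern as a list: 5 of 11 were higher and 3 lower, with a median of 0.43. Over all genes tested, 23.1% were higher and 26.8% lower, so the count of lower variants lay near its share. H2afx, which marks DNA breaks and carries the stem-loop, had 83.6, 73.3 and 99.4 CPM in RNA and 909.2, 1093 and 836.6 CPM in footprints, a log2 ratio of 3.47. H2afz stood at -5.30, H3f3b at -2.10 and H3f3a at -2.02, and 100%, 73.8% and 100% of their windows were shared.

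To describe genes whose reads can be placed, 5916 genes that share under 5% of their windows were taken as own-sequence genes. This limit was chosen after the values were seen. Among them 1443 were higher, or 24.4%, and 1347 lower, or 22.8%, so 47.2% were called, with a median of 0.03 and quartiles of -0.56 and 0.60. Without pair 1, 10.9% were higher and 10.4% lower. The classes that follow are read against these shares.

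Subunits of the mitochondrial respiratory chain and ATP synthase that are encoded in the nucleus had more footprints than RNA. Of 42 own-sequence genes, 40 were higher and 0 lower, with a median of 1.39. Over all 76 subunits, 53 were higher and 7 lower. Cox4i1, of cytochrome c oxidase, had 290.8, 304.0 and 337.0 CPM in RNA and 1215, 993.8 and 1552 CPM in footprints, a log2 ratio of 1.99 ± 0.21 (edgeR adjusted p = 0.000427). Footprints exceeded RNA in all 3 pairs without overlap. Ndufb6, of complex I, stood at 2.49 and Atp5e, of ATP synthase, at 2.37. The lowest subunits were Cox7c at -5.91 and Uqcrb at -5.74, which share 100% and 91.8% of their windows.

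Mitochondrial ribosomal proteins, which translate the mitochondrial genome, showed the same direction. Of 45 own-sequence genes, 35 were higher and 0 lower, with a median of 1.14. Mrpl34 had 13.4, 18.6 and 18.2 CPM in RNA and 83.6, 102.4 and 123.1 CPM in footprints, a log2 ratio of 2.62, whereas Mrpl51, with 66.1% of windows shared, stood at -2.79. Proteasome subunits, which degrade ubiquitin-tagged proteins, were higher in 12 of 24 and lower in 0, with a median of 0.66. Psma7 and Psmb4, both of the catalytic core, stood at 1.77 and 1.76. Selenoproteins, in which a stop codon is read as selenocysteine, were higher in 6 of 10 and lower in 0, among them Selm at 1.77 and Gpx1, a peroxidase, at 1.23. Without pair 1, the proteasome count was 5 of 24, and the mitochondrial ribosomal count 27 of 45.

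Cytosolic tRNA synthetases, which charge tRNAs with amino acids, leaned higher. Of 20 own-sequence genes, 11 were higher and 0 lower, with a median of 0.57, and without pair 1 the count was 5. Aimp2, a scaffold of the synthetase complex, had 44.3, 39.9 and 45.8 CPM in RNA and 142.6, 145.8 and 128.5 CPM in footprints, a log2 ratio of 1.68 (edgeR adjusted p = 0.000412). The groups did not overlap. Eef1e1, another scaffold member, stood at 1.46 and Sars, the seryl-tRNA synthetase, at 0.97. Eprs, which joins glutamyl- and prolyl-tRNA synthetase in 1 chain, had 620.4, 482.5 and 698.8 CPM in RNA and 597.1, 534.0 and 696.3 CPM in footprints, a log2 ratio of 0.03 (adjusted p = 0.91). Its 2 groups overlapped.

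Collagen genes also leaned higher although their coding regions are long. Of 14 own-sequence collagen genes, 6 were higher and 0 lower, with a median of 0.61. Col1a1, of fibrillar collagen I, had 543.6, 519.0 and 389.7 CPM in RNA and 2094, 2144 and 1948 CPM in footprints, a log2 ratio of 2.10 ± 0.20 (edgeR adjusted p = 0.000314). Its partner chain Col1a2 stood at 1.16, and Col7a1, of anchoring fibrils, at -0.13 (adjusted p = 0.591). Of 29 genes of basement membrane and integrins, 12 were higher and 0 lower, with Hspg2, the proteoglycan perlecan, and Lama1, a laminin chain, both at 1.55. Lama5, the laminin chain with 282.6, 399.4 and 239.8 CPM in RNA, had 253.8, 193.5 and 174.1 CPM in footprints and stood at -0.55 (adjusted p = 0.0752). It was called lower without pair 3 (-0.58, adjusted p = 0.0203) and with plain library totals (-0.62, adjusted p = 0.0474). Without pair 1, 4 of the 14 collagens and 4 of the 29 basement membrane genes were higher, so the basement membrane count was near the 10.9% of all own-sequence genes.

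**Figure D3:**
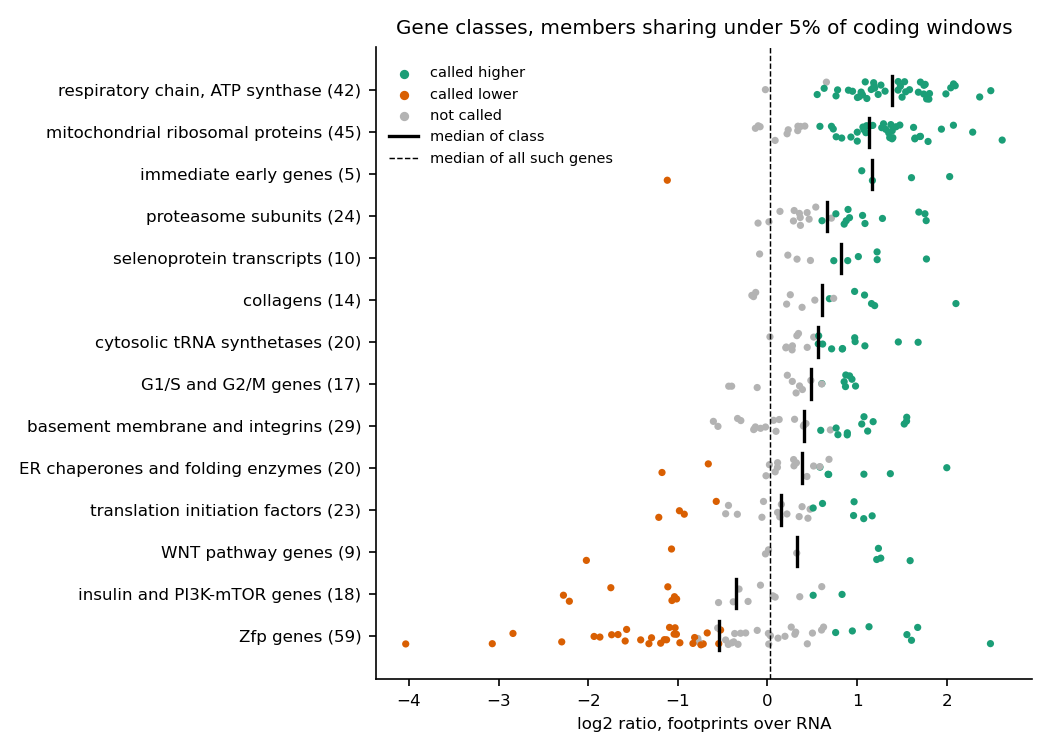
Log2 ratio of footprints to RNA (x axis) for members of 14 gene classes that share under 5% of their 28-base coding windows; each point is 1 gene, coloured by its call, bars are class medians and the dashed line is the median of 0.03 over all 5916 such genes. Respiratory chain and mitochondrial ribosomal genes lie to the right, and genes named Zfp and insulin and PI3K-mTOR genes have medians left of the line.

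Immediate early genes encode transcription factors that are switched on within minutes of a stimulus. All 5 listed members were called, 4 higher and 1 lower, also without any 1 of the pairs. Fos had 8581, 11310 and 7800 CPM in RNA and 20310, 20550 and 20730 CPM in footprints, a log2 ratio of 1.17 ± 0.20 (edgeR adjusted p = 0.00297). Jun had 4250, 5230 and 3560 CPM in RNA and 17770, 16840 and 18160 CPM in footprints, a log2 ratio of 2.03 (adjusted p = 0.000429). For both genes the groups did not overlap. Junb stood at 1.61, Jund at 1.05 and Klf4 at -1.12. Together the 5 genes took 17960 to 22990 CPM of RNA and 50870 to 56400 CPM of footprints.

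Cebpb and Cebpd encode C/EBP transcription factors, regulators of mammary epithelial differentiation, and lay among the 15 highest own-sequence ratios. Cebpb, an intronless gene with no ATG in its annotated 5′ UTR, had 313.2, 322.1 and 354.9 CPM in RNA and 4030, 2621 and 4426 CPM in footprints. Its log2 ratio was 3.45 ± 0.24 (edgeR adjusted p = 8.49e-05). Cebpb also had the highest ratio in the list of 8 transcripts with regulatory upstream reading frames. The ATG count covers only the annotated 5′ UTR, so it cannot show a frame that starts inside the annotated coding region. The Cebpb coding stretch printed above holds a further ATG after its start. Cebpd, also of 1 exon, had 684.2, 620.9 and 634.1 CPM in RNA and 4739, 2794 and 4179 CPM in footprints, a log2 ratio of 2.56. Footprints of both genes exceeded RNA in every pair. Their relative Cebpg stood at 0.58 and was not called by edgeR (adjusted p = 0.0591), but was called by DESeq2 (0.0251) and limma voom (0.0386) and without pair 2 (0.043). Over all 71 own-sequence genes of 1 exon, 41 were higher and 5 lower, with a median of 0.99. Other own-sequence genes near the top, chosen after their values were seen, were Pgp, a phosphoglycolate phosphatase, at 2.85 and Dpm3, of mannose donor synthesis, at 2.80.

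Genes of the activated pathways did not share 1 direction. Wnt1, which counts transgene and mouse reads alike, had 178.7, 304.6 and 163.3 CPM in RNA and 505.5, 548.1 and 405.4 CPM in footprints, a log2 ratio of 1.22 ± 0.21 (edgeR adjusted p = 0.00302). Fgfr1, likewise fed by the transgene, had 733.9, 1071 and 568.3 CPM in RNA and 870.4, 1665 and 840.6 CPM in footprints, a log2 ratio of 0.48 (adjusted p = 0.0781). It was called higher by DESeq2 (adjusted p = 0.0182) and limma voom (0.0276). Wnt1 footprints exceeded its RNA without overlap, whereas the Fgfr1 groups overlapped. Fkbp1a, the source of the drug-binding domain, stood at -1.08 with 20.9% of windows shared, and lost its call without pair 1 (adjusted p = 0.0608).

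Among the 6 listed genes of FGF and ERK signalling and its feedback, 2 were higher and 1 lower. Over all own-sequence genes, 24.4% were higher and 22.8% lower. Phlda1, a target of ERK signalling, had 1098, 883.6 and 835.6 CPM in RNA and 4782, 2944 and 5574 CPM in footprints, a log2 ratio of 2.20 (edgeR adjusted p = 0.000605). Frs2, the docking protein that couples FGF receptors to ERK, had 58.7, 68.7 and 47.7 CPM in RNA and 13.8, 10.6 and 14.1 CPM in footprints, a log2 ratio of -2.16 (adjusted p = 0.000504). The 2 genes lay on opposite sides without overlap between groups. Fgf2, a ligand, stood at 2.41 with a mean RNA of 2.47 CPM. Of 10 WNT pathway genes, 4 were higher and 2 lower, against 23.1% and 26.8% of all genes tested. Tcf7l2, a transcription factor of the pathway, stood at 1.59 and the receptor gene Fzd7 at 1.26. Dvl1, a signal transducer, stood at -2.02, while its relative Dvl3 stood at 1.24. Ctnnb1, which encodes β-catenin, stood at 0.01 (adjusted p = 0.968).

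Genes of the insulin and PI3K-mTOR route leaned lower. Of 18 own-sequence members, 7 were lower and 2 higher, with a median of -0.35. Irs2, an adaptor of the insulin receptor, had 983.2, 730.1 and 754.4 CPM in RNA and 264.7, 187.3 and 288.7 CPM in footprints, a log2 ratio of -1.75 ± 0.21 (edgeR adjusted p = 0.000781). RNA exceeded footprints in all 3 pairs. Tsc1, an mTORC1 inhibitor, stood at -2.28, Pik3ca, a catalytic PI3K subunit, at -2.21 and Rictor, of mTORC2, at -1.06. Rps6kb1, the S6 kinase gene, stood at -1.04, and Mtor itself at -0.38 (adjusted p = 0.0954). Igf2r, a receptor that clears IGF2, stood at 0.83 and lost its call without pair 1 (adjusted p = 0.229), where 5 members were lower and 0 higher.

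Zinc finger proteins named Zfp, mostly DNA-binding regulators, leaned lower as well. Of 59 own-sequence genes, 28 were lower and 7 higher, with a median of -0.54, and without pair 1 the counts were 16 and 5. Zfp62 had 127.9, 110.4 and 151.1 CPM in RNA and 20.1, 17.5 and 16.3 CPM in footprints, a log2 ratio of -2.84 (edgeR adjusted p = 9.55e-05). Zfp655 stood at -1.59 and Zfp654 at -4.04. On the other side, Zfp36l2, which destabilizes mRNAs, had 331.0, 451.2 and 219.1 CPM in RNA and 1111, 1186 and 812.1 CPM in footprints, a log2 ratio of 1.68. Zfp771, at 2.49, had the highest ratio of the class.

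The length of the coding region moved with the ratio across own-sequence genes. Spearman's correlation over 5916 genes was -0.477, and it was -0.507, -0.417 and -0.395 in pairs 1, 2 and 3. Genes were split into 10 groups by coding length. In the 594 genes with the shortest coding regions, 132 to 618 bases, the median was 0.76, and 53.5% were higher. In the 592 with the longest, 4074 to 100401 bases, the median was -0.67, and 54.1% were lower. Spearman's correlation with the ratio was -0.292 for 3′ UTR length, -0.164 for 5′ UTR length and -0.269 for mean RNA level, which is itself part of the ratio.

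ATG triplets in the annotated 5′ UTR, at which ribosomes may start before the coding region, also moved with the ratio. Of own-sequence genes, 47.6% had at least 1. The median was 0.20 in 3102 genes with none, -0.06 in 1334 genes with 1 and -0.40 in 351 genes with at least 5. Within the short, middle and long groups of coding length, genes with none had medians of 0.59, 0.18 and -0.19, and genes with at least 1 had 0.39, -0.16 and -0.59. These are descriptions across genes, and the parts of length and of upstream ATGs in single ratios were not tested.

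**Figure D4:**
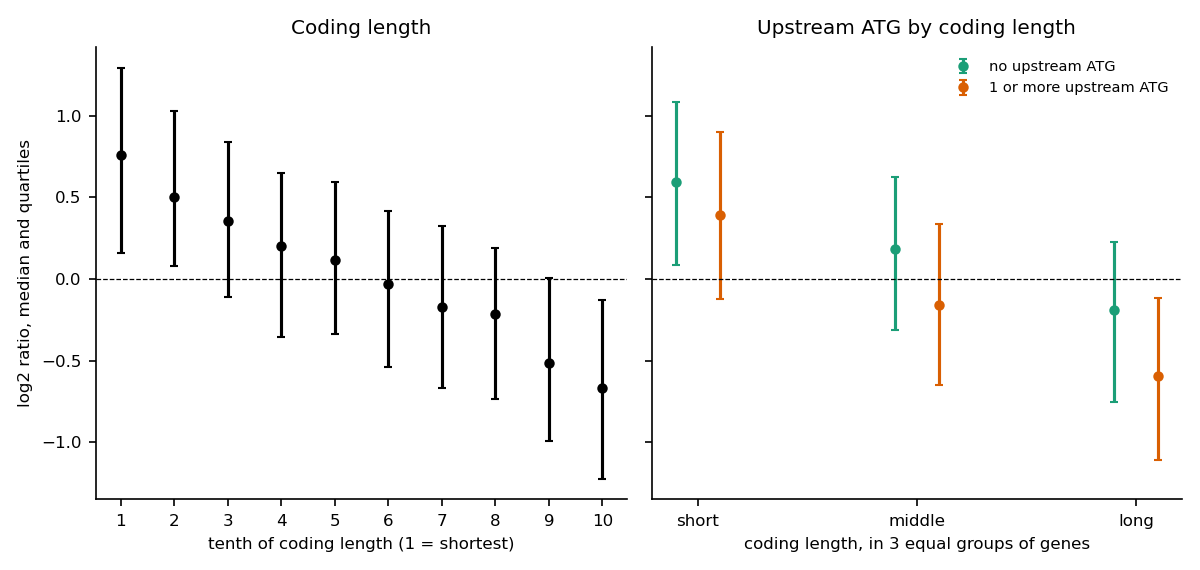
Log2 ratio of footprints to RNA (y axis; points are medians, bars are quartiles) over 5916 own-sequence genes. On the left, by coding length in 10 groups from short (1) to long (10), the median falls from 0.76 to -0.67; on the right, by presence of an ATG in the annotated 5′ UTR within 3 groups of coding length, genes with 1 or more have the lower median in each group.

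Taking from each gene the median of its own coding-length group changed how the classes stood. The median of the respiratory chain subunits went from 1.39 to 0.84, that of mitochondrial ribosomal proteins from 1.14 to 0.61 and that of proteasome subunits from 0.66 to 0.37. Collagens went from 0.61 to 1.21 and basement membrane and integrin genes from 0.41 to 1.07. The tRNA synthetases went from 0.57 to 0.70, the Zfp genes from -0.54 to -0.36 and the PI3K-mTOR genes from -0.35 to -0.32. None of these 8 medians changed sign.

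The genes described next were chosen after their values were seen, from the low end of the own-sequence ranking. Chd2, a chromatin remodeller, had 649.9, 432.5 and 764.0 CPM in RNA and 43.6, 36.5 and 29.9 CPM in footprints, a log2 ratio of -4.04 ± 0.28 (edgeR adjusted p = 8.49e-05). Med13, of the Mediator complex, had 425.1, 363.0 and 317.8 CPM in RNA and 29.8, 55.9 and 22.5 CPM in footprints, a log2 ratio of -3.45. Hivep2, a zinc finger transcription factor outside the lowest 15, stood at -3.08 and Gabpb2, a subunit of the GABP transcription factor, at -3.32. In each of these genes RNA exceeded footprints without overlap. Of the 15 lowest own-sequence genes, 10 had an ATG in the annotated 5′ UTR and 5 had none. Of the 15 highest, 4 had one, and over all own-sequence genes 47.6% had at least 1. Median coding lengths were 2307 bases in the lowest 15 and 804 in the highest 15, and the parts of length and ATGs were not tested. The 5′ UTRs of Chd2, Med13, Hivep2 and Gabpb2 hold 4, 2, 8 and 5 ATG triplets, and the most upstream one with 12 bases on either side in 1 exon is printed with the ATG in capitals.
Chd2: aggaggctctagATGgcggctgtgcct
Med13: gaggcggcggtaATGgcggatggtggg
Hivep2: gtcaggacaatcATGcccatgagaact
Gabpb2: gcccccccaaatATGcatatgtgaaaa
They lie in 5′ UTRs on GRCm38 at chr7:73541710-73541736 (minus strand, Chd2), chr11:86357559-86357585 (minus, Med13), chr10:14126457-14126483 (plus, Hivep2) and chr3:95217691-95217717 (minus, Gabpb2). Gigyf1, Stx16, Zfp654, Nrbp2 and Tgoln1 are the 5 of the lowest 15 with no annotated upstream ATG. Tgoln1, of the trans-Golgi network, was the lowest of all 15, with 174.5, 162.6 and 167.7 CPM in RNA and 0.772, 4.99 and 1.41 CPM in footprints (log2 ratio -6.49).

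**Figure D5:**
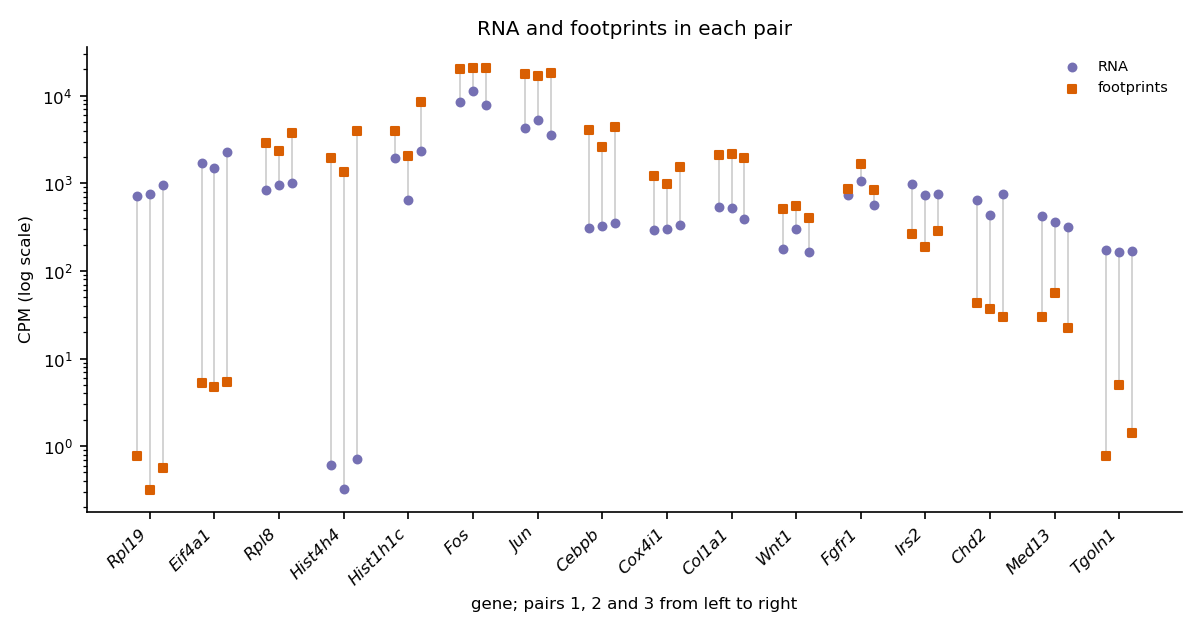
RNA (circles) and footprint (squares) CPM on a log y axis for 16 genes (x axis), with pairs 1, 2 and 3 from left to right and a line joining the libraries of a pair. Footprints lie below RNA in every pair for Rpl19, Eif4a1, Irs2, Chd2, Med13 and Tgoln1, and above RNA in every pair for the other 10 genes.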

How the data were processed

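The deposited file holds the authors' read counts for 7318 gene symbols, not normalized. The submitters' processing notes name genome build mm10 and, as tools, HTSeq, Bowtie2, STAR, cutadapt and bcl2fastq 1.8.3. What each did, the strand setting, the counted region and the handling of multi-mapping reads are not given in the sources used. The authors' gene selection is not given either, so totals cover the listed genes only.

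From the 6 AP20187 columns, CPM and log2 ratios were computed with TMM library sizes and a prior count of 2. The main test was edgeR's quasi-likelihood test (edgeR 4.0.16, R 4.3.3), footprints against RNA with the pair as a block, after filterByExpr with a minimum count of 10, adjusted by Benjamini-Hochberg over 7301 genes, 2-sided. SE were derived from the F statistic. The labels' protocols describe 1 cell pellet for both assays. Deviations from group means correlated at 0.385, 0.482 and 0.348 between same-numbered libraries, so numbers were taken as pairs. Those between all other libraries were negative, but deviations from a shared mean cancel, so these values are not separate support. The procedure was tested on simulated data.

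The libraries, gene lists and transcript measures were chosen with earlier results of these data known. Named genes were the 12 highest and the 12 lowest called ratios of genes that averaged 20 CPM or more and kept 1 sign in all pairs, for each list the 3 members with most RNA and both extremes, and Wnt1 and Fgfr1. All other names were chosen after their values were seen, and 1 gene is not reported here. Lists were counted, not tested. Noncoding RNAs, mitochondrially encoded genes and red cell markers had 0 listed members. Transcript features came from GENCODE M21 on GRCm38, the assembly also called mm10, where 7283 genes matched, 7126 by symbol and 157 by synonym. A single transcript per gene, the principal isoform by its APPRIS tag, was used and may differ from the isoforms present. Near-identical copies, overlapping genes and antisense genes may have been split or lost in counting. Alternatives were no replicate block, plain totals, DESeq2 1.42.0, limma voom (limma 3.58.1), other filters, a 2-fold test, thinned footprints and leaving out each pair.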

Additional observations from a re-analysis of the deposited data

How the results depend on the processing

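The data show ratios relative to the other listed genes, so a shift shared by most genes cannot be seen, and no vehicle library was used, so nothing here says what AP20187 changed. Footprint depth limits genes of low counts, since 3 counts are 0.29 to 0.936 CPM. No gene called in the paired edgeR test took the opposite sign in any alternative. The paired test called 1685 genes higher and 1956 lower; with no replicate block the counts were 1311 and 1500, and 2808 of the 3641 calls were kept in direction. A test against a 2-fold difference called 319 higher and 575 lower. DESeq2 called 1911 and 1967, limma voom 1815 and 1978, plain library totals 1502 and 2116, and footprints thinned to 3042199 counts 1637 and 1919. Leaving out each pair in turn gave 777 to 2188 higher and 1066 to 2431 lower genes, the lowest without pair 1. Over all list members, leaving out each pair moved the median between 0.43 and 0.82 for collagens, 0.053 and 0.16 for solute carriers, and 0.24 and 1.04 for WNT genes. It moved between -0.17 and 0.00070 for initiation factors, 0.10 and 0.48 for keratins, 0.032 and 0.23 for cytosolic chaperones, and -0.55 and -0.45 for PI3K-mTOR genes. With plain totals the medians were 0.50 for tRNA synthetases, 0.072 for solute carriers, -0.21 for splicing factors and -0.53 for PI3K-mTOR genes, and the median over genes of each gene's mean pair ratio was -0.12 against -0.06. DESeq2 gave 0.18 for solute carriers and -0.42 for PI3K-mTOR genes, limma voom 0.16 for solute carriers, and thinned footprints -0.18 for splicing factors. The cause of these moves was not tested. The 4 settings on shared windows and coding length were chosen after seeing the data.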

Other observations

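Secretory and proliferation genes that share under 5% of their coding windows were mixed. Their counts are read against the 24.4% higher and 22.8% lower of all 5916 such genes. Without pair 1 those shares were 10.9% and 10.4%. Of 20 chaperones and folding enzymes of the endoplasmic reticulum, 6 were higher and 2 lower, with a median of 0.38; without pair 1 the counts were 2 and 1. Sdf2l1, a cochaperone, stood at 2.00 (edgeR adjusted p = 0.00048) and Dnajc10, a disulphide reductase, at -1.18. Hspa5, the main chaperone BiP, stood at 0.30 (adjusted p = 0.262). Of 18 genes of the translocon and oligosaccharyl transferase, 6 were higher and 2 lower, with Dad1, a subunit of the transferase, at 1.77. Of 17 cell cycle genes, 7 were higher and 0 lower, among them the helicase gene Mcm3 at 0.94 and the mitotic kinase gene Aurkb at 0.98; 3 were higher without pair 1. Of 52 splicing factors, 19 were higher and 9 lower, of 78 solute carriers 19 and 16, of 16 lipid synthesis enzymes 5 and 0, of 8 glycolysis enzymes 2 and 1, and of 14 cytosolic chaperones 4 and 0. The solute carrier counts lay near the shares of all own-sequence genes. With shared-sequence members included, 8 of 30 cytosolic chaperones were higher and 8 lower, and of 21 lipid synthesis enzymes 5 and 3. Over all genes tested, 23.1% were higher and 26.8% lower. Of 12 keratins 4 were higher and 0 lower, against 4 and 4 of all 27 tested. The actin and tubulin list also holds genes of actin-binding proteins. Of its 9 own-sequence members 1 was higher and 0 lower, this being Pfn1, an actin-binding protein gene. Over all 24 members 3 were higher and 3 lower, with Actb at 1.74 and 49.4% shared. Of 7 genes known to be sensitive to eIF4E 3 were higher, of 7 with regulatory upstream reading frames 2, and of 2 with iron-responsive elements 0, with 0 lower in each. The 3 listed polyamine genes, all of shared sequence, held 1 higher and 1 lower.

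Milk and secreted luminal proteins differed between pairs. Of 12, 5 were higher and 0 lower, but 1 was higher without pair 1 and 9 without pair 3. Csn3, a casein, had 8171, 4997 and 10100 CPM in RNA and 17770, 10830 and 4000 CPM in footprints, so pair 3 had the opposite sign. Its log2 ratio was 0.34 (edgeR adjusted p = 0.589), and 1.14 without pair 3 (adjusted p = 0.00183). Among cell type markers, 4 of 7 luminal, 2 of 7 basal and 4 of 7 fibroblast own-sequence genes were higher. The counts were 0 of 4 endothelial, 2 of 4 adipocyte and 2 of 4 leukocyte genes, and 0 were lower in each type. Over all own-sequence genes, 24.4% were higher and 22.8% lower. With shared-sequence markers included, 1 of 9 luminal markers was lower, Krt8 at -1.97. So was 1 of 10 basal markers, Krt14 at -0.88. The 2 listed muscle markers, of shared sequence, were not called.

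Pair ratios of most genes were close, with a median SD over pairs of 0.33, but 99 genes had an SD above 2. In 64 of them footprint library 3 lay farthest from the other 2 libraries of its assay, and in 20 footprint library 2. Itsn1, an endocytic scaffold gene, had 31.8, 43.5 and 25.2 CPM in RNA and 39.6, 109.2 and 2854 CPM in footprints, and no call at a log2 ratio of 2.32 (adjusted p = 0.156). It was called higher at 4.09, 3.59 and 0.83 without pairs 1, 2 and 3 (adjusted p = 0.0309, 0.0451 and 0.00282), and at 4.90 with no replicate block (adjusted p = 0.0257). Mroh6 had 17.7, 38.7 and 1243 CPM in footprints at a log2 ratio of 5.72, and Cobl, an actin nucleator gene, 286.6, 314.3 and 2085 CPM at 3.25. Pgk1, a glycolytic enzyme gene that shares every window, was listed at 0 in footprint library 3 and had 4.15 and 3.75 CPM in the other 2. What set footprint library 3 apart in these genes was not tested.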
